A study of Homo sapiens with 6 samples.

Results

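The HOX genes encode homeodomain transcription factors that give cells of the embryo their position along the head-to-tail axis. In humans they lie in 4 clusters, HOXA, HOXB, HOXC and HOXD, and the number in a gene's name is its paralogue position: genes with the same number in different clusters descend from a common ancestral gene. Low-numbered genes lie at the 3′ end of a cluster and act towards the head, and high-numbered genes lie at the 5′ end and act towards the tail. In the female reproductive tract the high-numbered HOXA genes pattern the oviduct, uterus, cervix and upper vagina, and in mice Hoxa10 and Hoxa11 are needed in the adult uterus for implantation. HOX proteins bind DNA with partners of the TALE homeodomain class, the PBX, MEIS and PKNOX proteins. Retinoic acid and MLL complexes are known to turn HOX genes on, and Polycomb complexes to keep them silent.

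RNA of 12Z cells was studied, an established line of epithelial cells from human endometriosis, all at passage 40. A single siRNA to LINC01638, which is a long non-coding RNA from between protein-coding genes, was given in 3 libraries and a commercial control siRNA in 3 libraries, and cells were harvested at 72 h. All cells were transfected with an siRNA and none without was analysed here, and with 1 siRNA sequence the loss of LINC01638 and other effects of that siRNA cannot be told apart. Total RNA without ribosomal RNA was sequenced by strand, and the comparison addresses what LINC01638 does in these cells. The rule took every protein-coding gene whose symbol is HOX, a cluster letter and a number, without use of measured values. It found 39 members among 62696 genes listed, 11 in HOXA, 10 in HOXB, 9 in HOXC and 9 in HOXD. On GRCh38 (GENCODE 29) the HOXA genes lie on chromosome 7, and the other clusters span chr17:48528526-48729178 (HOXB), chr12:53938765-54056030 (HOXC) and chr2:176092891-176190907 (HOXD), with the genes on the minus strand of chromosomes 7 and 17 and on the plus strand of chromosomes 12 and 2.

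LINC01638 itself had 125, 103 and 123 counts with LINC01638 siRNA and 407, 334 and 414 counts with control siRNA (values of single libraries are given for replicates A, B and C in that order). Its log2 fold change was -1.87 ± 0.11 (SE, adjusted p = 3.73e-11). Fold changes are LINC01638 siRNA over control siRNA and adjusted p-values are from edgeR's quasi-likelihood F test, adjusted by the Benjamini-Hochberg method over 18569 genes with enough counts, with a threshold of 0.05. CPM are counts over library size after scaling by TMM, the trimmed mean of M-values, and libraries held 45617234 to 58148664 counts. The labels do not say that replicates were separate cultures, so p-values measure the spread between these libraries. Reads that met no annotated exon on the counted strand made up 13.2% ± 1.67 of mapped reads with LINC01638 siRNA and 9.18% ± 0.864 with control siRNA (SD, n = 3 each). They include reads on exons of the opposite strand, and their part in the changes below was not tested. In bulk RNA, fewer cells that express a gene and less RNA per cell cannot be told apart.

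Cell type markers gave a mixed picture of the line. Keratins were abundant, with KRT8 at 1813 CPM with LINC01638 siRNA and 2604 CPM with control siRNA, while the epithelial adhesion genes CDH1 (3.58 and 8.14 CPM) and EPCAM (1.38 and 0.377 CPM) were low. The stromal collagen gene COL1A1 was higher than every keratin listed, at 3107 CPM with LINC01638 siRNA and 4490 CPM with control siRNA. Counts of changed markers are to be read against all genes tested, of which 26.3% were higher, 29.6% lower and 56.0% either. Of 9 epithelial markers 2 rose and 6 fell, with a summed level of 3198 to 3724 CPM over LINC01638 siRNA libraries and 5195 to 5640 CPM over control libraries. All 7 stromal markers fell (summed 5358 to 5799 and 6765 to 8223 CPM), as did all 4 mesothelial markers (130.0 to 133 and 248 to 252 CPM). Of 3 tested endothelial markers 2 rose and 1 fell (summed over 4 markers, 10.3 to 12.4 and 12.6 to 15.3 CPM). Of 3 immune markers 1 was tested and did not pass, CD3E had 0 counts in all 6 libraries, and the list summed to 0.311 to 0.346 and 0.319 to 0.572 CPM. The part of these markers in the HOX changes was not tested.

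12Z cells expressed mainly HOXA and HOXB genes. Levels between genes are compared here as TMM-scaled CPM divided by kilobases of exon that no other annotated gene on the same strand shares (CPM per kb). On this scale HOXA held 73.7% of the summed HOX level with LINC01638 siRNA and 68.3% with control siRNA, HOXB 21.6% and 25.96%, HOXC 3.40% and 4.26%, and HOXD 1.28% and 1.44%. At least 1 CPM per kb was reached by 22 HOX genes with LINC01638 siRNA and by 23 with control siRNA. In both groups these were 10 of 11 HOXA genes, 7 of 10 HOXB genes (all but HOXB1, HOXB8 and HOXB13) and 4 of 9 HOXC genes. In HOXC both groups counted HOXC4, HOXC6 and HOXC8, and the fourth was HOXC9 with LINC01638 siRNA and HOXC10 with control siRNA. In HOXD, HOXD9 was above this level with LINC01638 siRNA, and HOXD8 and HOXD9 with control siRNA. HOXD8 lay just inside it at 1.30 CPM per kb with control siRNA and just outside it at 0.993 with LINC01638 siRNA.

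HOXA5, a mid-cluster gene known for its part in lung and mammary development, was the most abundant HOX gene, with 80.3 ± 2.84 CPM per kb in LINC01638 siRNA libraries and 65.9 ± 2.97 in control libraries. HOXA9, an abdominal-type gene that in mice is expressed where the oviduct forms, came next at 35.8 ± 2.18 and 29.8 ± 2.17 CPM per kb. With LINC01638 siRNA the order continued with HOXA6 (30.1), HOXA7 (25.8), HOXB2 (21.8), HOXA10 (21.4), HOXA11 (18.1), HOXA3 (14.2) and HOXB7 (12.8 CPM per kb). With control siRNA it continued with HOXA10 (28.1), HOXA6 (23.7), HOXB2 (17.9), HOXB7 (16.6), HOXA7 (15.2), HOXB9 (14.98), HOXA11 (14.3) and HOXA3 (10.97 CPM per kb). HOXA10 thus stood at rank 6 with LINC01638 siRNA and at rank 3 with control siRNA, HOXA7 at ranks 4 and 7, and HOXB9 at ranks 12 and 8. Many neighbours in the order did not separate: of 19 neighbouring pairs among the 20 highest genes, library ranges overlapped in 9 with LINC01638 siRNA and in 10 with control siRNA. HOXA5 overlapped with no other gene. With control siRNA HOXB2 to HOXA11 formed a run in which each gene overlapped with the next.

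**Figure D1:**
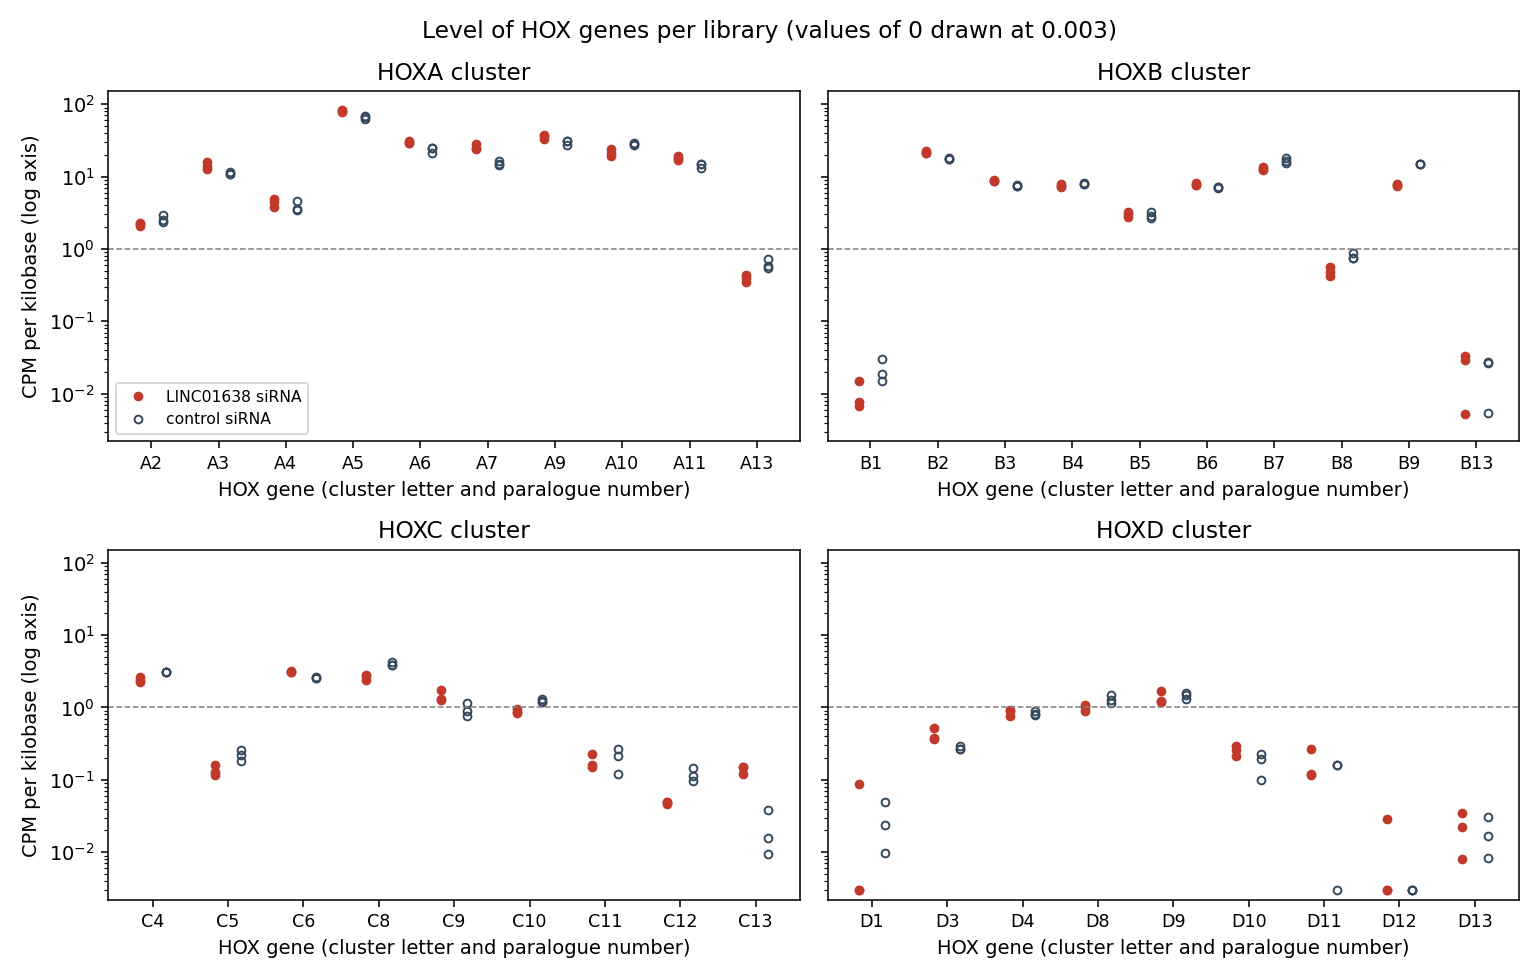
Level of HOX genes in CPM per kilobase of its own exon bases on a log axis, by cluster, with 3 filled points for LINC01638 siRNA libraries and 3 open points for control siRNA libraries; the dashed line marks 1 CPM per kb. HOXA2 to HOXA11 and HOXB2 to HOXB7 lie above the line, HOXA5 is highest at 80.3 and 65.9 CPM per kb, and HOXB1 and the position 13 genes lie below it.

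At the other end, 6 HOX genes had too few counts to be tested. HOXB1, HOXB13, HOXD12 and HOXD13 had fewer than 10 counts in each library. HOXC5 had 5, 6 and 5 counts with LINC01638 siRNA and 10, 7 and 7 with control siRNA, and only 40.1% of its exon bases are free of other genes on its strand. HOXD1, a head-end gene, had 0, 0 and 10 counts with LINC01638 siRNA and 5, 2 and 1 with control siRNA. HOXD12 had 2 counts in 1 LINC01638 siRNA library and 0 in the other libraries, where a count of 0 allows up to 0.0499 to 0.0687 CPM (3 counts of a library, counting error only). The genital and tail-end genes of position 13 were low throughout: HOXA13 was highest of them at 0.393 ± 0.0402 and 0.621 ± 0.0992 CPM per kb.

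Of the 39 HOX genes, 33 were tested and 23 changed, 13 of them higher and 10 lower with LINC01638 siRNA. These are 39.4% and 30.3% of those tested, where 26.3% of all genes tested were higher and 29.6% were lower. In either direction 69.7% of tested HOX genes changed, against 56.0% of all genes. The median log2 fold change was 0.14 over tested HOX genes and -0.0014 over all genes. The libraries of the groups did not overlap for 25 tested HOX genes (75.8%), 14 higher and 11 lower, against 61.5% of all genes, and all 23 changed genes were among them. HOXC12 and HOXC13 are in these counts but reached the test through the group where they were higher, so they had to differ. Without them 12 HOX genes were higher and 9 lower of 31 tested (67.7%), and 8 of the 31 changed at least 1.5-fold, 4 in each direction (25.8%, near the 22.8% of all genes). Scaled by library totals alone, 15 HOX genes were higher and 9 lower. That scaling moved the median of all genes to 0.10, with 6349 genes higher and 4288 lower (59.7% of changed genes higher) against 4887 and 5503 (47.0%) with TMM.

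By cluster, HOXB had 2 higher, 3 lower and 3 not passing of 8 tested. HOXC had 3 higher, 4 lower and 1 not passing of 8 tested, HOXC12 and HOXC13 included, and HOXD 1 higher, 1 lower and 4 not passing of 6 tested. By position, at positions 4 to 8, 4 were higher and 5 lower of 14 tested, and at positions 9 to 13, 4 were higher and 5 lower of 13 tested. All 3 tested genes of position 3 were higher (HOXA3, HOXB3 and HOXD3), and all 3 genes of position 8 were lower (HOXB8, HOXC8 and HOXD8). At position 6 HOXA6 and HOXC6 rose and HOXB6 did not pass, and HOXA10 and HOXC10 fell while HOXD10 did not pass. At position 9 the clusters split, with HOXA9 and HOXC9 higher, HOXB9 lower and HOXD9 not passing.

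**Figure D2:**
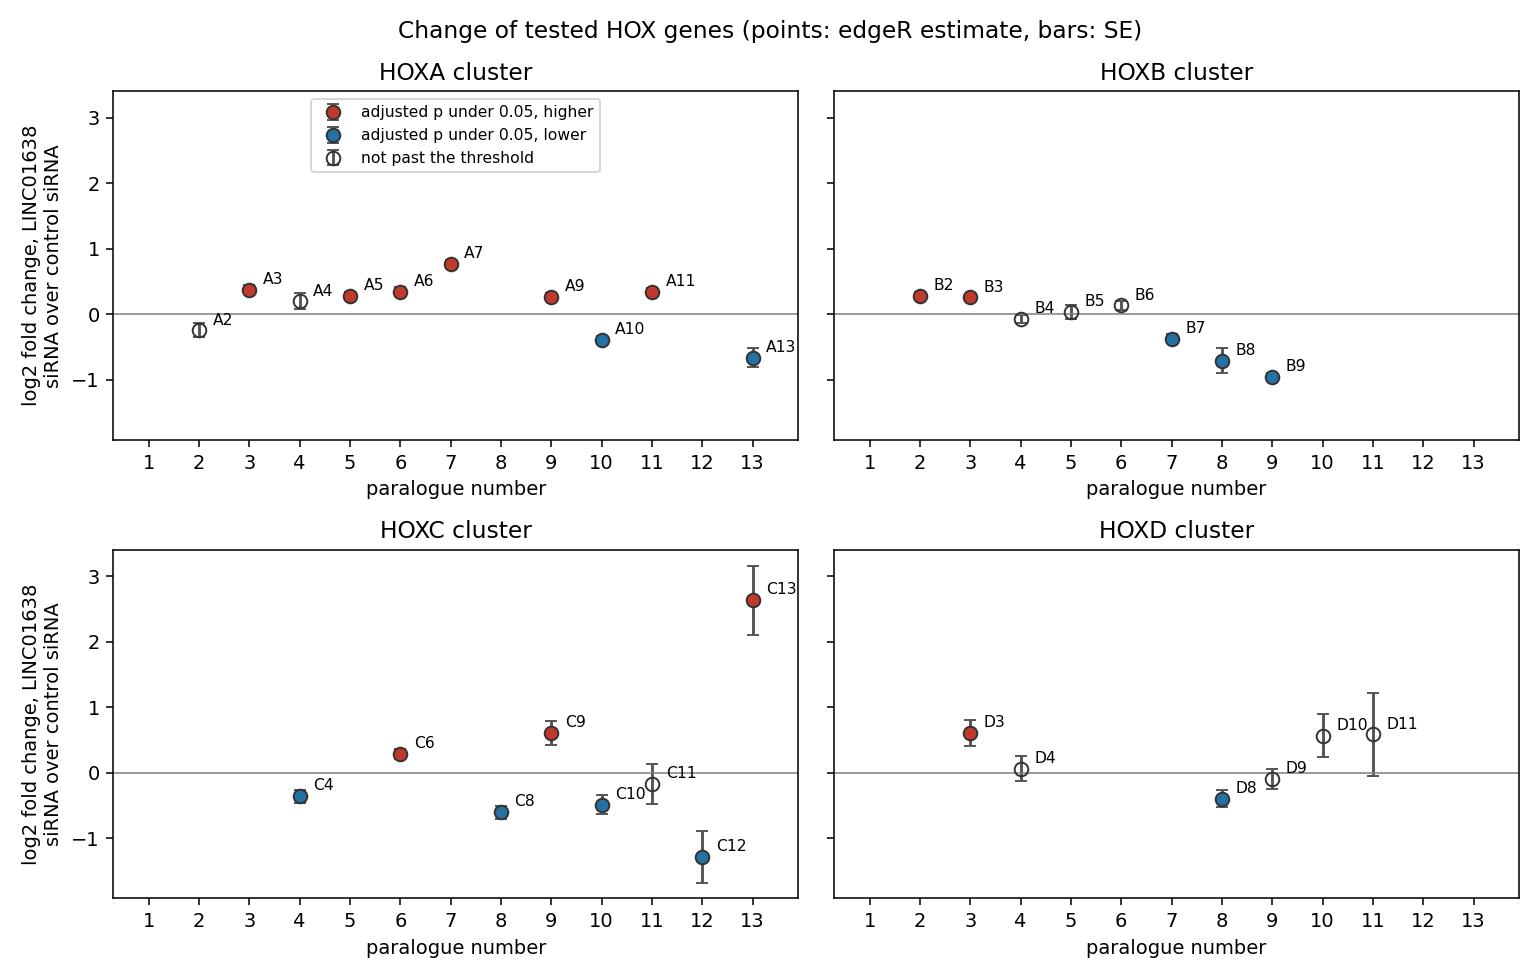
Log2 fold change (LINC01638 siRNA over control siRNA) of tested HOX genes by paralogue number, 1 panel per cluster, with points for the edgeR estimate and bars for its SE; red is higher and blue lower with an adjusted p under 0.05, and open points did not pass. In HOXB the values run from 0.28 at HOXB2 to -0.95 at HOXB9, and in HOXA the 2 genes that fell are HOXA10 and HOXA13.

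In the head-end part of HOXA, HOXA3 rose and HOXA2 did not pass. HOXA3, which in mice is needed for thymus and parathyroid, had 49.9, 62.7 and 54.0 CPM with LINC01638 siRNA and 42.0, 42.0 and 44.6 CPM with control siRNA. It rose by 0.37 ± 0.07 on the log2 scale (adjusted p = 0.00017), and LINC01638 siRNA replicate B was the highest library. HOXA2, which patterns the jaw and ear region, had 5.11, 5.70 and 5.37 CPM with LINC01638 siRNA and 5.74, 6.18 and 7.24 CPM with control siRNA. Its log2 fold change was -0.25 ± 0.11 (adjusted p = 0.0573), without overlap between the groups. The call for HOXA2 passed without LINC01638 siRNA replicate B (adjusted p = 0.0430) and without control replicate A (0.0280), and with counts without strand (0.0450).

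The middle of HOXA, positions 4 to 7, rose except for HOXA4. HOXA7 changed most: it had 58.8, 68.3 and 59.6 CPM with LINC01638 siRNA and 39.0, 35.4 and 35.4 CPM with control siRNA. The groups were far apart, at 1.70-fold higher with LINC01638 siRNA (log2 0.76 ± 0.06, adjusted p = 3.87e-09). HOXA5 had 133, 142 and 136 CPM with LINC01638 siRNA and 114, 107 and 117 CPM with control siRNA, and rose by 0.28 ± 0.05 on the log2 scale (adjusted p = 6.06e-05). HOXA6, which lies between them, had 36.3, 36.0 and 38.5 CPM with LINC01638 siRNA and 26.2, 30.7 and 30.4 CPM with control siRNA, and rose by 0.34 ± 0.07 (adjusted p = 0.000152). Neither gene's groups overlapped. HOXA4 had 5.31 ± 0.612 CPM with LINC01638 siRNA and 4.65 ± 0.729 with control siRNA (log2 0.20 ± 0.12, adjusted p = 0.187), and its groups overlapped. Only 69.0% of the exon bases of HOXA4 are its own, its value without strand was -0.06, and without control replicate B it passed (log2 0.32, adjusted p = 0.0393).

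The reproductive-tract end of HOXA moved in both directions. HOXA9 had 84.8, 94.9 and 93.9 CPM with LINC01638 siRNA and 79.8, 69.6 and 78.2 CPM with control siRNA, and rose by 0.26 ± 0.06 (adjusted p = 0.0007). HOXA10, the uterine gene, had 63.7, 79.6 and 71.0 CPM with LINC01638 siRNA and 96.0, 91.1 and 94.4 CPM with control siRNA. It fell to 0.761 times its control level (log2 -0.39 ± 0.06, adjusted p = 4.24e-05), with no overlap. HOXA11, which acts with HOXA10 in uterine stroma and in limb and kidney, had 42.0, 38.5 and 44.7 CPM with LINC01638 siRNA and 34.2, 30.2 and 34.5 CPM with control siRNA. It rose by 0.34 ± 0.07 (adjusted p = 0.000194), so the genes on either side of HOXA10 rose while HOXA10 fell. HOXA13, a gene of the digits and the lower genital tract, had 2.20, 1.79 and 2.01 CPM with LINC01638 siRNA and 3.73, 2.95 and 2.79 CPM with control siRNA. It fell by 0.66 ± 0.15 on the log2 scale (adjusted p = 0.000962).

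HOXA9 and HOXA10 overlap in the annotation and share exon bases with another gene on their strand, so 84.1% and 90.1% of their exon bases are their own, and reads in the shared bases were not assigned to them. The 250 bases before the RefSeq start of HOXA9 and before the inner of the RefSeq starts of HOXA10 are shown, both of which lie inside the longer gene spans of GENCODE 29, since these neighbours moved in opposite directions; CG dinucleotides are in capitals, and the sequences are from RefSeq on GRCh38.p14.
HOXA9, chr7:27165538-27165787, minus strand: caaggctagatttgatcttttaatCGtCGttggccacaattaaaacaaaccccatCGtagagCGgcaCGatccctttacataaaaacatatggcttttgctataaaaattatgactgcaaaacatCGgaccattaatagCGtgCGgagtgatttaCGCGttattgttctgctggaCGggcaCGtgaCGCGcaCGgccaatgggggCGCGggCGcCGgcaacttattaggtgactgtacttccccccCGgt
HOXA10, chr7:27174321-27174570, minus strand: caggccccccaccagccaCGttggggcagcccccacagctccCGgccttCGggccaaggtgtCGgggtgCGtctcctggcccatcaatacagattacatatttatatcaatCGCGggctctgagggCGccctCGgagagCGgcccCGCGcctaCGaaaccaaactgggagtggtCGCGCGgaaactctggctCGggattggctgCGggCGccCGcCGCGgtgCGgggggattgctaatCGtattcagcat
HOXA9 has 20 CG dinucleotides in this window and HOXA10 has 24, while the window before the outer start of HOXA10 has 19. Over 26 distinct windows of 20 HOX genes in the table the median was 19.5, and over 35116 windows of all genes it was 11. Both windows hold TATAAA and CCAAT, read on both strands. TATAAA was in 5 HOX windows (19.2%) and 10.7% of all windows, and CCAAT in 17 (65.4%) and 32.0%. The GC-box letters GGGCGG were in 13 (50%) and 42.6%, and TGATNNAT, the letters of a HOX and PBX site, in 3 (11.5%) and 6.47%. Several of the HOX windows are of HOXA3, and repeated windows were dropped for HOX genes only. Neither the HOXA9 nor the HOXA10 window holds GGGCGG or TGATNNAT.

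In HOXB, HOXB2 and HOXB3 rose, HOXB7, HOXB8 and HOXB9 fell, HOXB4 to HOXB6 did not pass, HOXB1 and HOXB13 were not tested, and no trend along the cluster was tested. HOXB2, a hindbrain gene at the head end, had 49.7, 53.2 and 49.6 CPM with LINC01638 siRNA and 42.6, 41.3 and 41.3 CPM with control siRNA, and rose by 0.28 ± 0.05 on the log2 scale (adjusted p = 0.00013). HOXB3, its neighbour, had 60.1, 59.6 and 62.1 CPM with LINC01638 siRNA and 50.1, 52.0 and 50.2 CPM with control siRNA, and rose by 0.26 ± 0.05 (adjusted p = 0.000187). Both had all LINC01638 siRNA libraries above all control libraries. The next genes did not pass: log2 fold changes were -0.07 ± 0.06 for HOXB4, known in blood stem cell growth (adjusted p = 0.363), 0.03 ± 0.10 for HOXB5 (0.799) and 0.14 ± 0.07 for HOXB6 (0.106). HOXB4 turned to 0.03 with library totals and HOXB5 to -0.02 without LINC01638 siRNA replicate A or without control replicate A. HOXB6 passed with library totals (log2 0.24), with the stricter filter (0.17) and among protein-coding genes only (0.18).

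HOXB7, HOXB8 and HOXB9, adjacent genes towards the tail end, all fell. HOXB7 had 19.1, 20.5 and 19.2 CPM with LINC01638 siRNA and 28.0, 23.3 and 24.8 CPM with control siRNA (log2 -0.37 ± 0.07, adjusted p = 0.000187). HOXB8 had 0.971, 0.866 and 1.15 CPM with LINC01638 siRNA and 1.56, 1.83 and 1.53 CPM with control siRNA (log2 -0.71 ± 0.19, adjusted p = 0.00394). HOXB9, which in mice acts with its position 9 paralogues in the rib cage and mammary gland, had 19.2, 20.7 and 19.9 CPM with LINC01638 siRNA and 39.0, 39.1 and 37.9 CPM with control siRNA. It fell to 0.516 times its control level, the lowest p among HOX genes (log2 -0.95 ± 0.06, adjusted p = 6.65e-11). No library of either group overlapped for these genes, and HOXB13, farther out, stayed at 1 to 6 counts.

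**Figure D3:**
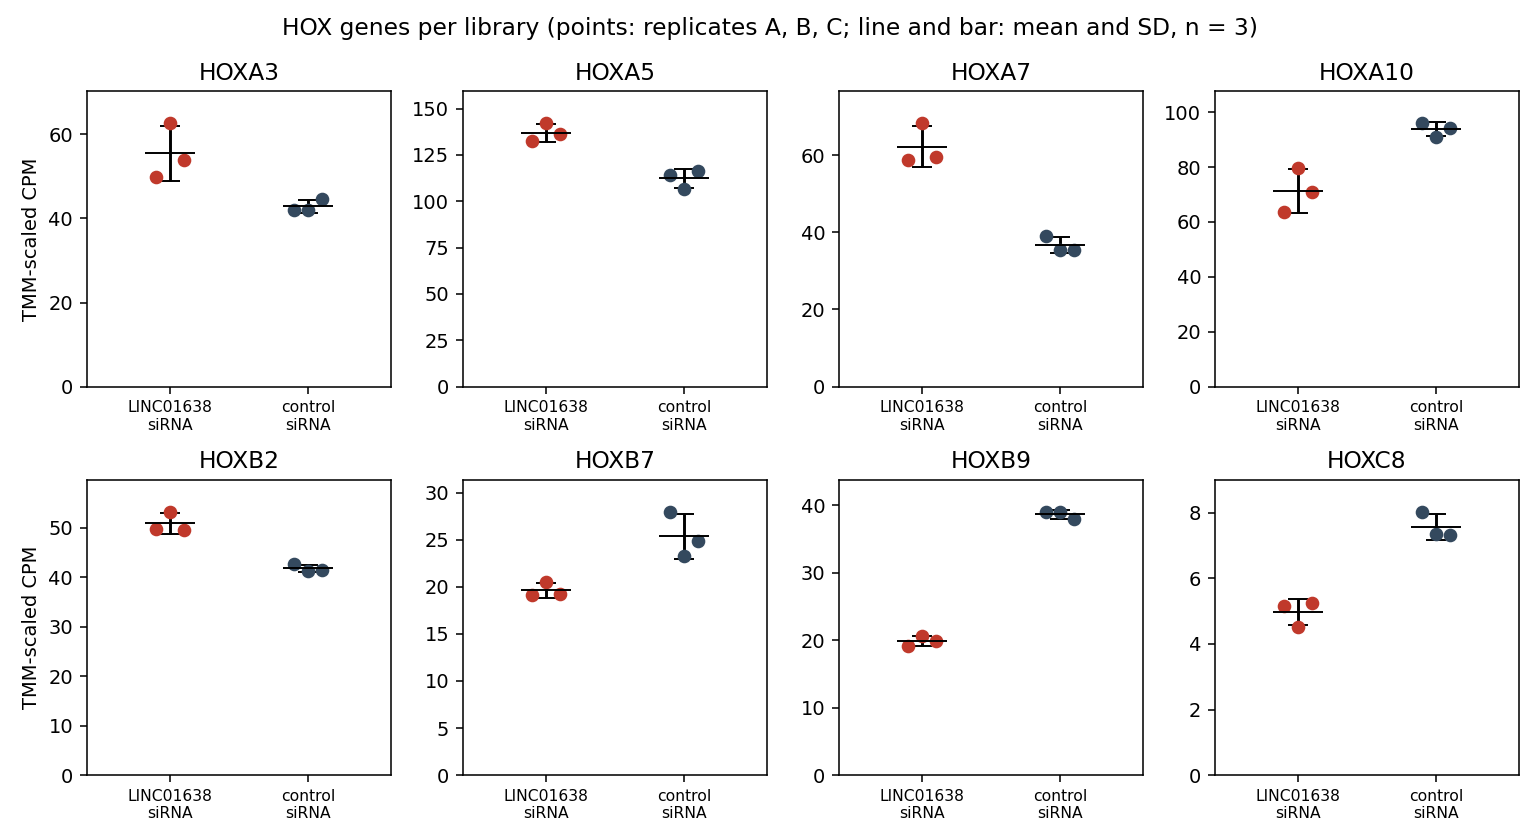
TMM-scaled CPM of 8 HOX genes in each library (points, LINC01638 siRNA left and control siRNA right), with the mean and SD of 3 libraries per group; each axis starts at 0. HOXA3, HOXA5, HOXA7 and HOXB2 are higher and HOXA10, HOXB7, HOXB9 and HOXC8 lower with LINC01638 siRNA, with no overlap between groups; HOXB9 has 19.2 to 20.7 CPM with LINC01638 siRNA and 37.9 to 39.1 with control siRNA.

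HOXC genes moved in both directions. HOXC4 had 4.97, 5.39 and 5.84 CPM with LINC01638 siRNA and 6.87, 6.94 and 6.98 CPM with control siRNA, and fell by 0.36 ± 0.10 on the log2 scale (adjusted p = 0.00398). HOXC6 had 9.27, 9.24 and 9.55 CPM with LINC01638 siRNA and 7.79, 7.67 and 7.54 CPM with control siRNA, and rose by 0.29 ± 0.08 (adjusted p = 0.00627). HOXC4 and HOXC6 share exon bases, and 82.2% and 84.3% are their own. HOXC8, a trunk gene, had 5.17, 4.52 and 5.24 CPM with LINC01638 siRNA and 8.03, 7.35 and 7.32 CPM with control siRNA. It fell to 0.658 times its control level (log2 -0.60 ± 0.10, adjusted p = 3.2e-05), with the groups well apart. HOXC9 had 2.02, 2.83 and 2.11 CPM with LINC01638 siRNA and 1.44, 1.21 and 1.85 CPM with control siRNA (log2 0.61 ± 0.18, adjusted p = 0.00817). Replicate B was the highest LINC01638 siRNA library, and without it HOXC9 did not pass (log2 0.44, adjusted p = 0.0618).

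HOXC10, a hind-limb and lower-body gene, had 2.05, 1.83 and 1.90 CPM with LINC01638 siRNA and 2.61, 2.702 and 2.79 CPM with control siRNA, and fell by 0.49 ± 0.14 (adjusted p = 0.00615). HOXC11 had 0.587 ± 0.142 CPM with LINC01638 siRNA and 0.650 ± 0.242 with control siRNA (log2 -0.17 ± 0.31, adjusted p = 0.664), its groups overlapped, and without control replicate C the value was 0.09. HOXC12 and HOXC13, at the 5′ end, rested on few reads. HOXC12 had 9, 8 and 10 counts with LINC01638 siRNA and 20, 14 and 26 with control siRNA (log2 -1.28 ± 0.39, adjusted p = 0.00853), and without control replicate C it did not pass (log2 -1.10, adjusted p = 0.0534). HOXC13, a hair and nail gene, had 16, 19 and 22 counts with LINC01638 siRNA and 5, 1 and 2 with control siRNA (log2 2.63 ± 0.52, adjusted p = 0.000255), and without control replicate A the value was 3.37. Its level stayed low in both groups, at 0.342 ± 0.042 CPM with LINC01638 siRNA and 0.0515 ± 0.0374 CPM with control siRNA.

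HOXD genes were low and mostly did not pass. HOXD3, which in other cells is linked to adhesion and integrin genes, had 1.87, 1.31 and 1.33 CPM with LINC01638 siRNA and 1.05, 0.939 and 0.962 CPM with control siRNA (log2 0.61 ± 0.20, adjusted p = 0.0162). Replicate A was the highest LINC01638 siRNA library, and without it the value was 0.42 (adjusted p = 0.121). It also did not pass without control replicate C (log2 0.59, adjusted p = 0.0501) or with counts without strand (log2 0.64 ± 0.29, adjusted p = 0.0656). In both the fold change was about as large. Counts without strand are not the sum of both strands, since they leave out reads that touch genes on both. HOXD8 had 2.66, 2.81 and 2.36 CPM with LINC01638 siRNA and 3.34, 3.02 and 3.87 CPM with control siRNA (log2 -0.39 ± 0.14, adjusted p = 0.0198). That call was lost without LINC01638 siRNA replicate C (adjusted p = 0.0873), without control replicate C (0.125) and with library totals (0.0787).

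The other tested HOXD genes overlapped between groups. HOXD9 had 2.59 ± 0.535 CPM with LINC01638 siRNA and 2.76 ± 0.258 with control siRNA (log2 -0.09 ± 0.15, adjusted p = 0.63). HOXD4 had 1.27 ± 0.133 and 1.22 ± 0.0809 CPM (log2 0.06 ± 0.19, adjusted p = 0.799). HOXD10, a gene of limb and lower spinal cord, had 0.476, 0.577 and 0.649 CPM with LINC01638 siRNA and 0.432, 0.504 and 0.226 CPM with control siRNA (log2 0.57 ± 0.33, adjusted p = 0.152). HOXD11 had 24, 10 and 12 counts with LINC01638 siRNA and 14, 0 and 14 with control siRNA (log2 0.59 ± 0.63, adjusted p = 0.456).

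Cluster sums, in CPM, are descriptions with no test. All 39 genes summed to 758 ± 30.7 CPM with LINC01638 siRNA and 690 ± 16.8 with control siRNA, a ratio of 1.10. HOXA summed to 496, 552 and 527 CPM with LINC01638 siRNA and 455, 431 and 460 CPM with control siRNA, so every LINC01638 siRNA library was higher (ratio 1.17). HOXB summed to 195, 200.4 and 201 CPM with LINC01638 siRNA and 207, 204 and 202 CPM with control siRNA, without overlap, at a ratio of 0.972 that turned to 1.04 with library totals. HOXC summed to 25.2 ± 0.626 and 27.6 ± 0.740 CPM (ratio 0.911), and HOXD, whose libraries overlapped, to 8.93 ± 0.740 and 9.02 ± 0.612 CPM (ratio 0.990, and 1.06 with library totals). Within HOXB, positions 1 to 3 summed to 112 ± 1.51 CPM with LINC01638 siRNA and 92.5 ± 0.859 with control siRNA, and positions 9 to 13 to 20.02 ± 0.774 and 38.7 ± 0.613 CPM. Within HOXA, positions 4 to 8 summed to 241 ± 10.1 and 183 ± 4.15 CPM, while positions 9 to 13 summed to 206 ± 11.9 and 206 ± 10.6 CPM, where HOXA9 and HOXA11 rose and HOXA10 and HOXA13 fell.

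**Figure D4:**
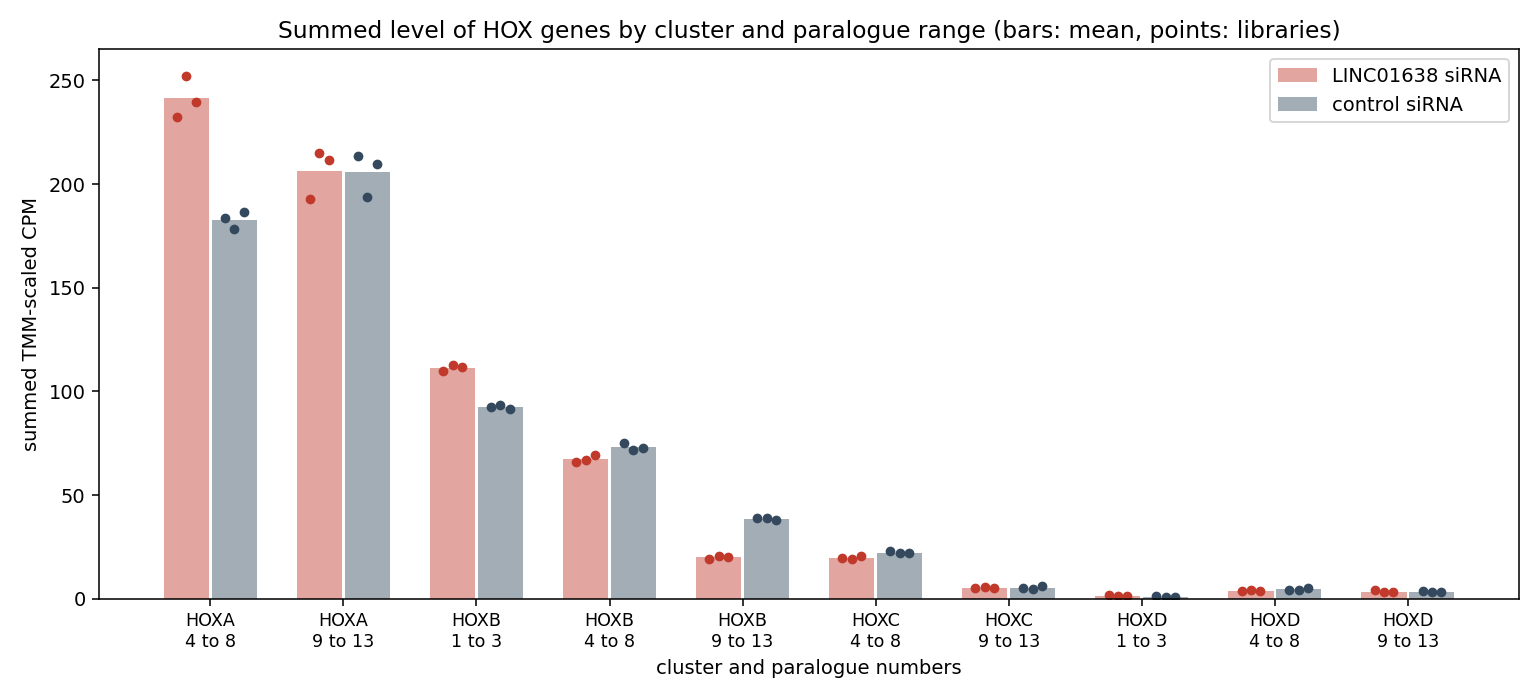
TMM-scaled CPM summed over the HOX genes of 10 ranges of cluster and paralogue (bars are means and points are libraries, LINC01638 siRNA left and control siRNA right). HOXA positions 4 to 8 lie at 241 with LINC01638 siRNA and 183 with control siRNA, HOXA positions 9 to 13 at 206 in both groups, and HOXB positions 9 to 13 at 20.02 and 38.7.

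Transcripts of the opposite strand run through many HOX genes, and 19 of the 39 are overlapped by an annotated gene on the other strand. Reads on the other strand were under 5% of the reads of both strands for 23 tested HOX genes in both groups. They were 10% or more for 3 of the tested genes. HOXD3 had 225 antisense and 250 sense counts summed over LINC01638 siRNA libraries and 205 and 148 over control libraries, so antisense reads made up 47.4% and 58.1%. For HOXA2 they were 14.4% and 12.2%, and for HOXD8 11.1% and 10.7%. HAGLR and HOXD-AS2 overlap HOXD3, while no annotated gene on the other strand overlaps HOXA2 or HOXD8.

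Of 30 non-coding genes and neighbours listed for the clusters, 29 were found and 10 had enough counts. Of these 4 rose (40%, against 56.0% of all genes called in either direction), and none fell with edgeR, DESeq2 or limma-voom or at an unadjusted p under 0.05 in edgeR. Their median log2 fold change was 0.14. HOXB-AS1, on the strand opposite HOXB2 and HOXB3, had 0.825, 0.847 and 1.16 CPM with LINC01638 siRNA and 0.357, 0.389 and 0.528 CPM with control siRNA (log2 1.15 ± 0.28, adjusted p = 0.00149). HOXB-AS3 rose by 0.47 ± 0.17 (adjusted p = 0.0204), HOTAIRM1, an RNA from the HOXA cluster, by 0.41 ± 0.16 (0.0372), and HOXA-AS3, which overlaps HOXA3, HOXA4, HOXA6 and HOXA7, by 0.31 ± 0.10 (0.0169). Of the HOX genes opposite HOXA-AS3, HOXB-AS1 and HOXB-AS3, HOXA3, HOXA6, HOXA7, HOXB2 and HOXB3 rose, while HOXA4, HOXB5 and HOXB6 did not pass. Of all genes tested 26.3% were higher, and no link between the strands was tested. HOTAIR, an RNA from the HOXC cluster known for its work with Polycomb, had 12, 3 and 12 counts with LINC01638 siRNA and 24, 10 and 14 with control siRNA (log2 -0.97 ± 0.47, adjusted p = 0.0868). HOXA-AS2, HOXA10-AS, HOXA11-AS, HOXD-AS2 and HAGLR had log2 fold changes of -0.15, -0.02, -0.47, -0.27 and 0.53 and did not pass. Opposite them lie HOXA3 and HOXA4 (HOXA-AS2), HOXA9 and HOXA10 (HOXA10-AS), HOXA11 (HOXA11-AS), HOXD3 (HOXD-AS2 and HAGLR) and HOXD1 (HAGLR). Of these HOX genes HOXA3, HOXA9, HOXA11 and HOXD3 rose, HOXA10 fell, HOXA4 did not pass and HOXD1 was not tested. The count of 4 that rose was 2 without LINC01638 siRNA replicate C, without control replicate B or without control replicate C.

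MicroRNAs of the miR-196 and miR-10 families are made from genes inside the HOX clusters and are known to act on HOX mRNAs. Their mature sequences from RefSeq (GRCh38.p14) are shown with the seed, bases 2 to 8, in capitals.
miR-196a-5p (chr12:53991762-53991783, plus strand, and chr17:48632532-48632553, minus strand): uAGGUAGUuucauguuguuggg
miR-196b-5p (chr7:27169528-27169549, minus strand): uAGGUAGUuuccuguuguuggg
miR-10a-5p (chr17:48579904-48579926, minus strand): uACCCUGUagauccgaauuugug
The letters that pair with the miR-196 seed, ACTACCT, were in the longest annotated 3′ UTR of 9 of 39 HOX genes, against 7.16% of 19073 genes. Those for the miR-10 seed, ACAGGGT, were in 3 of 39, against 12.7%. Only exact matches were searched, so sites with a G:U pair or a mismatch in the seed are missed. HOXA7, which had the highest fold change of the HOXA genes, has 4 matches and HOXC8, which fell, has 2, and they are shown with the match in capitals.
HOXA7, UTR position 302: tggcgcgtccaaaatACTACCTa
HOXA7, UTR position 339: tcgaggcacccccaaACTACCTa
HOXA7, UTR position 454: aaagtgaatctcactACTACCTa
HOXA7, UTR position 472: acctactcccctaaaACTACCTa
HOXC8, UTR position 128: acactcacaactctaACTACCTg
HOXC8, UTR position 864: ataaatctttaacatACTACCTa
Genes with a miR-196 match moved in both directions. HOXA5, HOXA7 and HOXA9 rose, HOXB7 and HOXC8 fell, HOXB6 did not pass, and HOXB1 and HOXB13 were not tested. Of the genes with a miR-10 match, HOXA3 and HOXB3 rose. The hairpin genes had between 0 and 7 counts in each library, and mature microRNAs were not measured here.

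The list of TALE cofactors, which set the DNA sites HOX proteins bind, also holds PBXIP1, which is not of that class. Of its 10 genes, all tested, 3 fell and 1 was higher (40% called, against 56.0% of all genes). The median log2 fold change was 0.02. PBX4 had 3.42 ± 0.214 CPM with LINC01638 siRNA and 5.11 ± 0.447 with control siRNA (log2 -0.58 ± 0.11, adjusted p = 0.000236). MEIS3 had 70.3 ± 2.84 and 85.5 ± 3.68 CPM (log2 -0.28 ± 0.05), and both fell. PKNOX2, the 1 that was higher, had 29, 25 and 32 counts with LINC01638 siRNA and 2, 0 and 3 with control siRNA, and since it reached the test through the group where it was higher, it had to differ. The 6 that did not pass had log2 fold changes between -0.08 and 0.13, among them MEIS2, at 165 ± 8.999 and 161 ± 2.94 CPM the most abundant of the class. With library totals 5 cofactors were higher.

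In the retinoic acid pathway 14 of 18 genes were tested, of which 2 rose and 5 fell (50% called, against 56.0% of all genes), and the median log2 fold change was -0.02. ALDH1A3, an enzyme that makes retinoic acid, had 473 ± 95.4 CPM with LINC01638 siRNA and 863 ± 16.0 with control siRNA (log2 -0.87 ± 0.13, adjusted p = 0.000576). CRABP2, which carries retinoic acid to its receptor, had 23.4 ± 3.00 and 41.6 ± 2.62 CPM (log2 -0.83 ± 0.08), and the receptor genes RARG and RXRA fell by 0.49 ± 0.05 and 0.32 ± 0.05. Of the other receptor genes RARA rose by 0.29 ± 0.06, RXRB fell by 0.16 ± 0.05, RARB did not pass and RXRG was not tested. ALDH1A1 and ALDH1A2 did not pass, the latter at 126 ± 2.74 and 120 ± 8.01 CPM. CYP26C1, an enzyme that breaks retinoic acid down, had 0.773 ± 0.0412 and 0.248 ± 0.0359 CPM and rose (log2 1.64 ± 0.30). Of the same family, CYP26B1 did not pass, at 10.5 ± 0.743 and 10.9 ± 0.670 CPM, and CYP26A1 was not tested. With library totals 5 genes of the list were higher.

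Of 23 Polycomb genes, all tested, 11 rose and 6 fell (73.9% called, against 56.0% of all genes), with a median log2 fold change of 0.09. The PRC2 core genes EZH2, its methyltransferase, and EED rose by 0.41 ± 0.05 and 0.41 ± 0.06, and the PRC1 genes BMI1 and RNF2 by 0.54 ± 0.08 and 0.39 ± 0.06. EZH2 averaged 77.3 ± 0.931 CPM with LINC01638 siRNA and 58.3 ± 1.51 with control siRNA. The 6 that fell, PHC1, CBX7, RBBP7, RING1, EZH1 and PHC3, had log2 fold changes between -0.39 and -0.15. With library totals 2 Polycomb genes were lower in place of 6. Of 15 MLL and trithorax-group genes, 8 rose and 4 fell (80% called), with a median of 0.16. KDM6A, a demethylase that removes the Polycomb mark, rose by 0.84 ± 0.05, RBBP5, a subunit of the MLL complexes, by 0.59 ± 0.05 and DOT1L, a histone methyltransferase linked to HOXA expression in leukaemia, by 0.52 ± 0.05. MEN1, the subunit that tethers MLL to HOX genes, had 49.2 ± 0.722 CPM with LINC01638 siRNA and 85.6 ± 2.11 with control siRNA (log2 -0.80 ± 0.05, adjusted p = 5.4e-11). The others of this list that fell were ASH2L, WDR5 and PSIP1, by 0.36 ± 0.05, 0.28 ± 0.05 and 0.24 ± 0.05. Of the MLL genes themselves, KMT2B rose by 0.37 ± 0.05 and KMT2A did not pass (log2 0.08 ± 0.12, adjusted p = 0.609).

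Müllerian duct and HOXA10 target genes were mostly too low to test, with 6 of 14 tested, 2 higher and 3 lower (83.3% called, against 56.0% of all genes) and a median of -0.13. WNT4, needed for the Müllerian duct to form, had 25.7 ± 3.995 CPM with LINC01638 siRNA and 64.4 ± 2.13 with control siRNA (log2 -1.33 ± 0.08, adjusted p = 8.46e-09). PAX8, a factor of the tubal and endometrial epithelium, had 1.97 ± 0.138 and 3.57 ± 0.307 CPM (log2 -0.86 ± 0.14). ITGB3, an integrin gene that HOXA10 is known to activate, rose by 0.50 ± 0.09, and WNT5A rose by 0.31 ± 0.06. KAT2B fell by 0.17 ± 0.05, FKBP4 did not pass (log2 -0.09 ± 0.05, adjusted p = 0.107) and IGFBP1 was not tested. EMX2, which HOXA10 is known to repress in endometrium, had 0 counts in all 6 libraries, and so did PAX2 and WNT7A.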

How the data were processed

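Total RNA of 12Z cells was sequenced by strand after ribosomal RNA depletion, per the labels' protocols. The counts are as deposited by the authors, whole numbers per gene in 1 table per library. Per the submitters' processing notes, STAR 2.7.10b, R 4.2.1 and GRCh38 were used, and the sources used here do not name the annotation release. Counts on the reverse strand were taken, as fits the directional kit. Counts without strand, used as an alternative, leave out reads that touch genes on both strands. In LINC01638 siRNA replicate A they came to 49661445, against 52360090 on the reverse strand. Rows that name no gene stayed out: unmapped reads were 13.0% ± 0.0422 with LINC01638 siRNA and 12.3% ± 0.351 with control siRNA, and ambiguous reads, which touch more than 1 gene, 7.17% ± 0.163 and 7.49% ± 0.243 of those mapped. Reads mapping to several places are listed as 0, so near-identical stretches of HOX paralogues are counted only where reads map uniquely.

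Groups and replicate letters came from the sample titles. The filter was filterByExpr of edgeR, and TMM factors scaled the rest. In the main test it kept genes with 15 counts in total that reached a set CPM in at least 3 libraries. That CPM is what 10 counts give in a library of median size. The test was the quasi-likelihood F test of edgeR (robust, group as the only term), run over all genes kept. The SE of its log2 fold changes was worked back from this test, as the absolute log2 fold change over the square root of F. Levels are mean ± SD, and the common biological coefficient of variation was 5.62%. GENCODE 29 gave exon lengths, strands and 3′ UTRs and may not be the counting release. Python 3.11.15 was used with pandas 2.3.3, matplotlib 3.10.9 and numpy 2.4.6, and R 4.3.3 with DESeq2 1.42.0, limma 3.58.1 and edgeR 4.0.16, and the tests were first checked on simulated data. The members, lists and tests were chosen with earlier results of these data known. One HOX gene and 1 cofactor are included in the counts and sums but not reported here. The other HOX genes, cofactors and tested non-coding genes of the clusters could be named, and of other lists up to 4 members that passed with the lowest p. Genes named beyond that rule were chosen after their values were seen. These are COL1A1, EMX2, PAX2, WNT7A, CD3E, ALDH1A1, ALDH1A2, ALDH1A3, RARA, RARB, RXRB and RXRG. They also include PHC1, CBX7, RBBP7, RING1, EZH1 and PHC3 of the Polycomb list and ASH2L, WDR5 and PSIP1 of the MLL list. CYP26A1, CYP26B1, IGFBP1, FKBP4, KAT2B, KMT2A and KMT2B were named in the same way. Alternatives were each library left out, other gene lengths, protein-coding genes only, counts without strand, a block for the replicate letter, limma-voom, the size factors and Wald test of DESeq2, library totals, and other filters (none, or 1 CPM in at least 3 libraries with a mean of 10 counts).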

Additional observations from a re-analysis of the deposited data

How the results depend on the processing

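Over 15 alternatives the count of HOX genes higher with LINC01638 siRNA was 12 to 15 and the count lower 8 to 11, and LINC01638 passed in each that tested it. Leaving out 1 library gave 12 to 14 higher, 8 to 11 lower and log2 fold changes of LINC01638 from -1.93 to -1.83. Direction and call were kept by 22 of 33 tested HOX genes under all alternatives that tested them. Of 490 gene and alternative pairs, 468 kept both, 8 lost the call (HOXC9, HOXC12, HOXD3 and HOXD8), 8 gained it and 6 reversed. Those 6 were genes that had not passed: HOXA4 without strand (-0.061), HOXB4 (0.032) and HOXD9 (0.0078) with library totals, HOXB5 without LINC01638 siRNA replicate A (-0.016) or control replicate A (-0.017), and HOXC11 without control replicate C (0.086). With 1 library left out, HOXB5 ranged from -0.017 to 0.11 and HOXC11 from -0.42 to 0.086. The causes were not tested.

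With library totals the summed cluster ratios were 1.26 for HOXA, 1.04 for HOXB, 0.978 for HOXC and 1.06 for HOXD, and without strand HOXB was at 0.914. With 1 library left out the ratios were 1.14 to 1.20 for HOXA, 0.967 to 0.982 for HOXB, 0.897 to 0.923 for HOXC and 0.943 to 1.02 for HOXD, which crossed 1 without LINC01638 siRNA replicate B (1.01) or C (1.02) or control replicate C (1.02). The count of HOX genes at 1 CPM per kb or more in control libraries was 23 or 24 under each alternative.

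With the replicate letter as a block, 13 HOX genes were higher and 10 lower, and no HOX call changed. Libraries of the same letter did not deviate together (correlations -0.08, -0.02 and -0.02), so no pairing by letter was visible. These values cannot tell whether libraries of the same letter were made together. Counts for the gene lists under the same alternatives were chosen after seeing the data: 168 of 180 stayed within 1.5 times. The 12 others include the non-coding genes without strand (2 lower) and without LINC01638 siRNA replicate C (1 lower), and cofactors among protein-coding genes only (3 higher) and without control replicate A or B (2 higher). Depth left 6 HOX genes untested.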
